A study of Mus musculus with 16 samples.

Results

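Heparan sulfate is a long sulfated sugar chain carried by proteoglycans of the cell surface and the matrix, and the genes described here are 10 of the 47719 genes with counts in mouse liver RNAseq. They are Sulf1 and Sulf2, which encode the extracellular sulfatases, the core proteins Sdc1, Sdc2, Sdc4, Gpc1 and Gpc4, and the chain enzymes Ext1, Hs6st1 and Ndst1. They were taken by symbol, and the set was chosen because Sulf2 was higher on both days after injection in the livers of 6-month-old mice. For Sulf2, every contrast that uses a 6-month group is therefore a description and carries no test. All 10 genes passed the filter on low counts.

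The study compared the livers of 1-month-old and 6-month-old wild type C57BL/6 male mice to ask how age alters the response to DNA damage. Diethylnitrosamine (DEN), which liver cells convert into a DNA alkylating agent, was injected into the peritoneum once, at a dose written as 25 mg/kg in the labels and in mg per g in the methods. There were 6 groups, which were controls at time point 0 and livers on days 2 and 6 after DEN at each age, with 2 libraries per control group and 3 per day. Each library was pooled from equal RNA of 3 mice, so p-values measure the spread between pools. The younger mice are 3 to 4 weeks old by the labels and 1-month-old by the methods. No controls were taken on days 2 and 6, so in the younger mice a change over those days of growth and an effect of DEN cannot be told apart.

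Chains are built on a core protein in the Golgi by a polymerase that contains Ext1, and Ndst1 and Hs6st1 then add N- and 6-O-sulfate groups. The finished chains bind growth factors, among them FGF, HGF and Wnt ligands, and on hepatocytes they also take up remnant lipoproteins. Sulf1 and Sulf2 remove 6-O-sulfate groups outside the cell and so change which ligands a chain holds, and SULF2 is known for its expression in liver tumours.

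Library totals were 19039330 to 34459774 counts, and levels are given as CPM, the count of a gene relative to the TMM-scaled size of its library. Several values below are given apart for the 3 libraries with the lowest clock score. This score subtracts the average log2 CPM of 5 genes in phase with Arntl from that of 9 genes in phase with Dbp, both circadian regulators. The 3 were control library 2, day 2 library 3 and day 6 library 2 of the 1-month-old mice. Their scores were -0.77, -1.72 and -2.19, and the other 13 libraries had -0.03 to 4.93. The score has no clear gap between -0.77 and -0.03, so it does not by itself make the 3 a separate group. The summed level of 6 hepatocyte markers was 38449.7 to 39675.0 CPM in these 3 libraries and 25867.1 to 32951.7 CPM in the other 13. That of 6 macrophage markers was 371 to 374 CPM in the 3 libraries and 396 to 748 CPM in the other 13. All 6 hepatocyte and all 6 macrophage markers were detected in all 16 libraries. The TMM scaling factor was 0.906 to 0.926 in the 3 libraries and 0.971 to 1.10 in the other 13. Mitochondrial genes made up 2.18% to 3.52% of the counts in the 3 libraries and 3.82% to 5.28% in the other 13. In bulk tissue, fewer cells of a type and less RNA per cell cannot be told apart.

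The DNA shown here is the stretch upstream of Sulf2, which chose the set. Sulf2 (ENSMUSG00000006800) lies on chromosome 2 of GRCm38 from 166073089 to 166155663 on the minus strand. The 250 bases before the outermost start that RefSeq gives for the gene are printed 5′ to 3′ on the strand of the gene, at chr2:166155684-166155933 of GRCm38.p6, with the match to a GC box (GGGCGG, read on either strand) in capitals.
Sulf2 upstream: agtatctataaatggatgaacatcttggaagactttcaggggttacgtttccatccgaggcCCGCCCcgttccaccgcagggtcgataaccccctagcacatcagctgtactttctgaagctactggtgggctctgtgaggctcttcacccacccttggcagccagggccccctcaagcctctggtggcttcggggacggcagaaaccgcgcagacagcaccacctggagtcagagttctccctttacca
This window held 1 GC box, and 32.7% of 32851 promoter windows of the same length held at least 1. It held no E-box CACGTG, found in 6.02% of the windows, and no p53 half-site, found in 7.13%. The 250 bases before a second start of Sulf2, at chr2:166155286-166155535, held none of these motifs. RefSeq windows were matched for 5 of the 10 genes, and those of Sdc1, Sdc4, Gpc4 and Hs6st1 each held a GC box and neither of the other motifs.

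Sulf2 was lowest in the untreated 6-month livers and was more than 3 times higher on both days after DEN at that age. The 1-month controls had 13.1 and 15.4 CPM, the 1-month day 2 libraries had 20.7, 26.3 and 17.4 CPM, and the 1-month day 6 libraries had 15.4, 11.8 and 19.5 CPM. The 6-month controls had 6.12 and 7.20 CPM, the 6-month day 2 libraries had 25.6, 21.4 and 24.2 CPM, and the 6-month day 6 libraries had 22.98, 21.1 and 23.2 CPM. Both 6-month controls were below all 14 other libraries, whose lowest value was 11.8 CPM, and the 6 DEN libraries of 6-month livers lay within the range of the 1-month day 2 libraries.

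Against the 6-month controls the log2 fold change of Sulf2 was 1.83 (SE 0.216), or 3.56-fold, on day 2 and 1.75 (SE 0.215), or 3.36-fold, on day 6. Both days share the same 2 control libraries. When each library was left out in turn, these values were 1.72 to 1.96 on day 2 and 1.64 to 1.87 on day 6. Between the untreated ages the value was -1.09 (SE 0.226), or 2.14-fold lower at 6 months. The response at 6 months exceeded that at 1 month by 1.24 (SE 0.287) on the log2 scale on day 2 and by 1.62 (SE 0.288) on day 6. Without the 3 libraries of lowest clock score the day 6 difference was 1.33. Over all 23 alternative settings the difference was 0.99 to 1.41 on day 2 and 1.33 to 1.81 on day 6.

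The 1-month groups took no part in choosing Sulf2 and were tested. On day 2 Sulf2 had a log2 fold change of 0.59 (SE 0.203) against the 1-month controls, with an adjusted p of 0.619 by edgeR's quasi-likelihood test, Benjamini-Hochberg adjusted. In that comparison 0.0191% of the 15684 genes tested passed the threshold of 0.1. The 3 day 2 libraries were above both controls, as was the case in this direction for 7.96% of all genes. On day 6 the log2 fold change was 0.13 (SE 0.201, adjusted p = 1.00 by the same test), and the libraries overlapped the controls. Day 6 against day 2 gave -0.46 (SE 0.179, adjusted p = 0.951) at 1 month by the same test. At 6 months the value, a description, was -0.08 (SE 0.177).

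**Figure D1:**
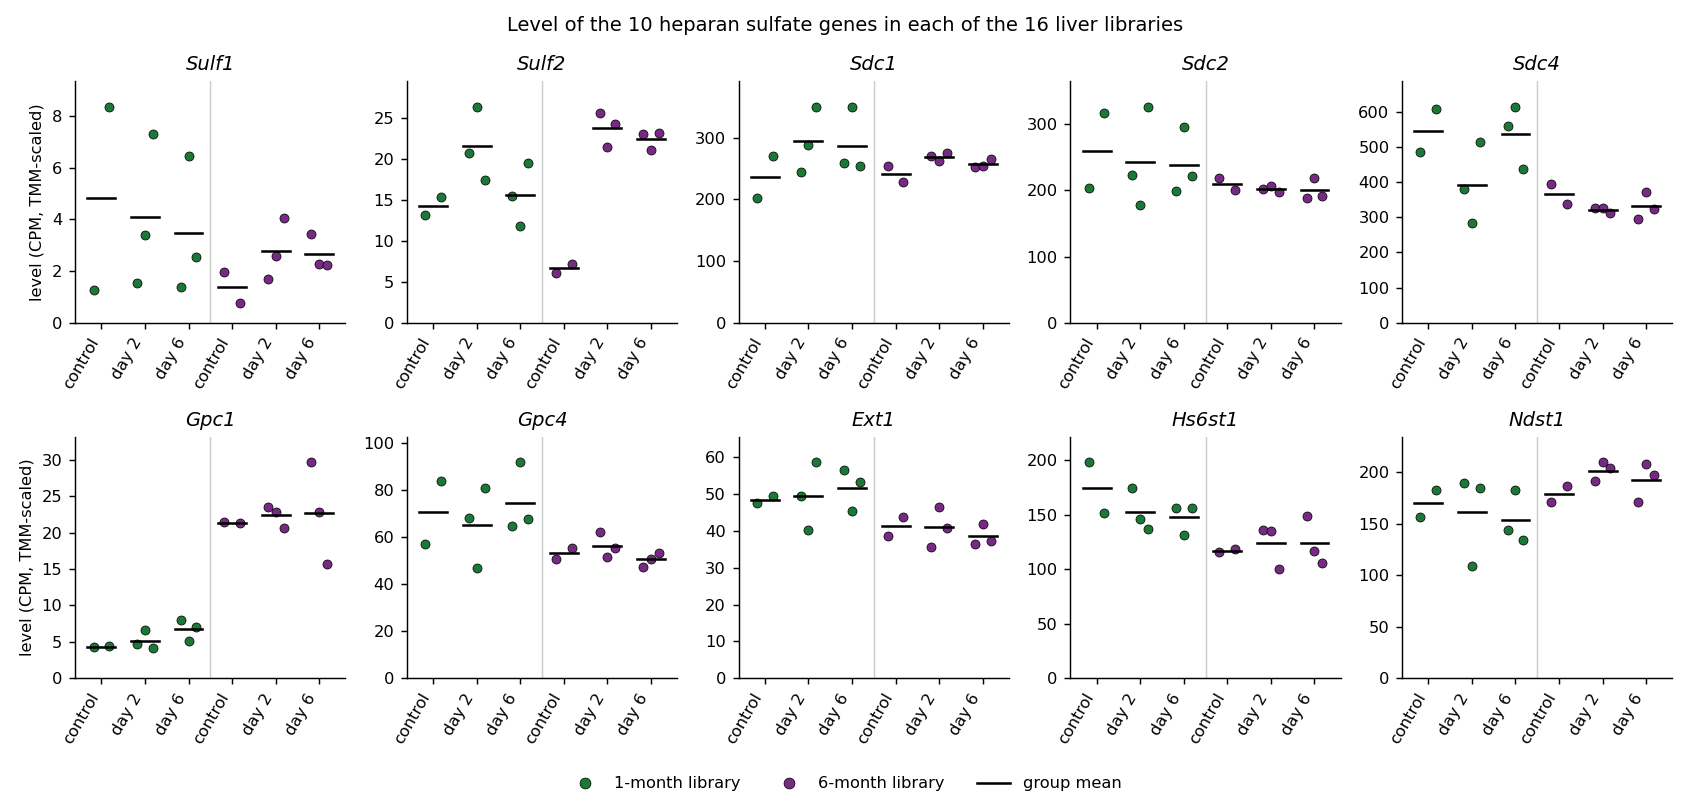
Each panel shows the level of 1 gene in CPM on a linear axis from 0, with 1 point per library, the 1-month groups in green at left and the 6-month groups in purple at right, and a bar at the group mean. Sulf2 is lowest in both 6-month controls (6.12 and 7.20 CPM), Gpc1 is higher in every 6-month library than in any 1-month library, and Sulf1 is highest in 1 library of each 1-month group.

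Per length of exon, the order of the 10 genes ran from Sdc4 to Sulf1. Median levels over the 16 libraries were 148 CPM per kb for Sdc4, 68.5 for Sdc1 and 58.0 for Sdc2. They were 24.7 CPM per kb for Hs6st1, 22.2 for Ndst1 and 21.2 for Gpc4. Ext1 followed at 5.53 CPM per kb, Sulf2 at 3.43, Gpc1 at 2.29 and Sulf1 at 0.214. The order of Sulf2 and Gpc1 differed by age. In the controls Sulf2 had 2.43 ± 0.274 CPM per kb (SD, n = 2) at 1 month and 1.13 ± 0.130 (SD, n = 2) at 6 months. Gpc1 had 0.845 ± 0.00682 CPM per kb (SD, n = 2) and 4.14 ± 0.0207 (SD, n = 2) there. On days 2 and 6 at 6 months the mean of Gpc1 was also above that of Sulf2, at 4.34 and 4.41 against 4.04 and 3.82 CPM per kb, with overlapping libraries. The libraries of neighbours overlapped for Sdc1 with Sdc2, for Hs6st1 with Ndst1 and Gpc4, for Ext1 with Sulf2 and for Sulf2 with Gpc1, and did not overlap at the other steps.

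Among the other genes of heparan sulfate, Col18a1, the core protein of collagen XVIII in basement membranes, had a median of 141 CPM per kb, second only to Sdc4 in the list. Papss2, a synthase of the sulfate donor PAPS, had 58.1 CPM per kb, close to Sdc2. Of 57 genes in the list, 46 had enough counts to test, and the 11 others had at most 13 counts in any library. These 11 were Gpc2, Gpc5, Ndst3, Ndst4, Hs6st2, Hs6st3, Hs3st1, Hs3st2, Hs3st4, Hs3st5 and Hpse2. Hs6st1 was thus the only 6-O-sulfotransferase gene with enough counts to test, and Ndst1 stood with Ndst2, at 4.91 CPM per kb, as the N-sulfotransferase genes tested.

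**Figure D2:**
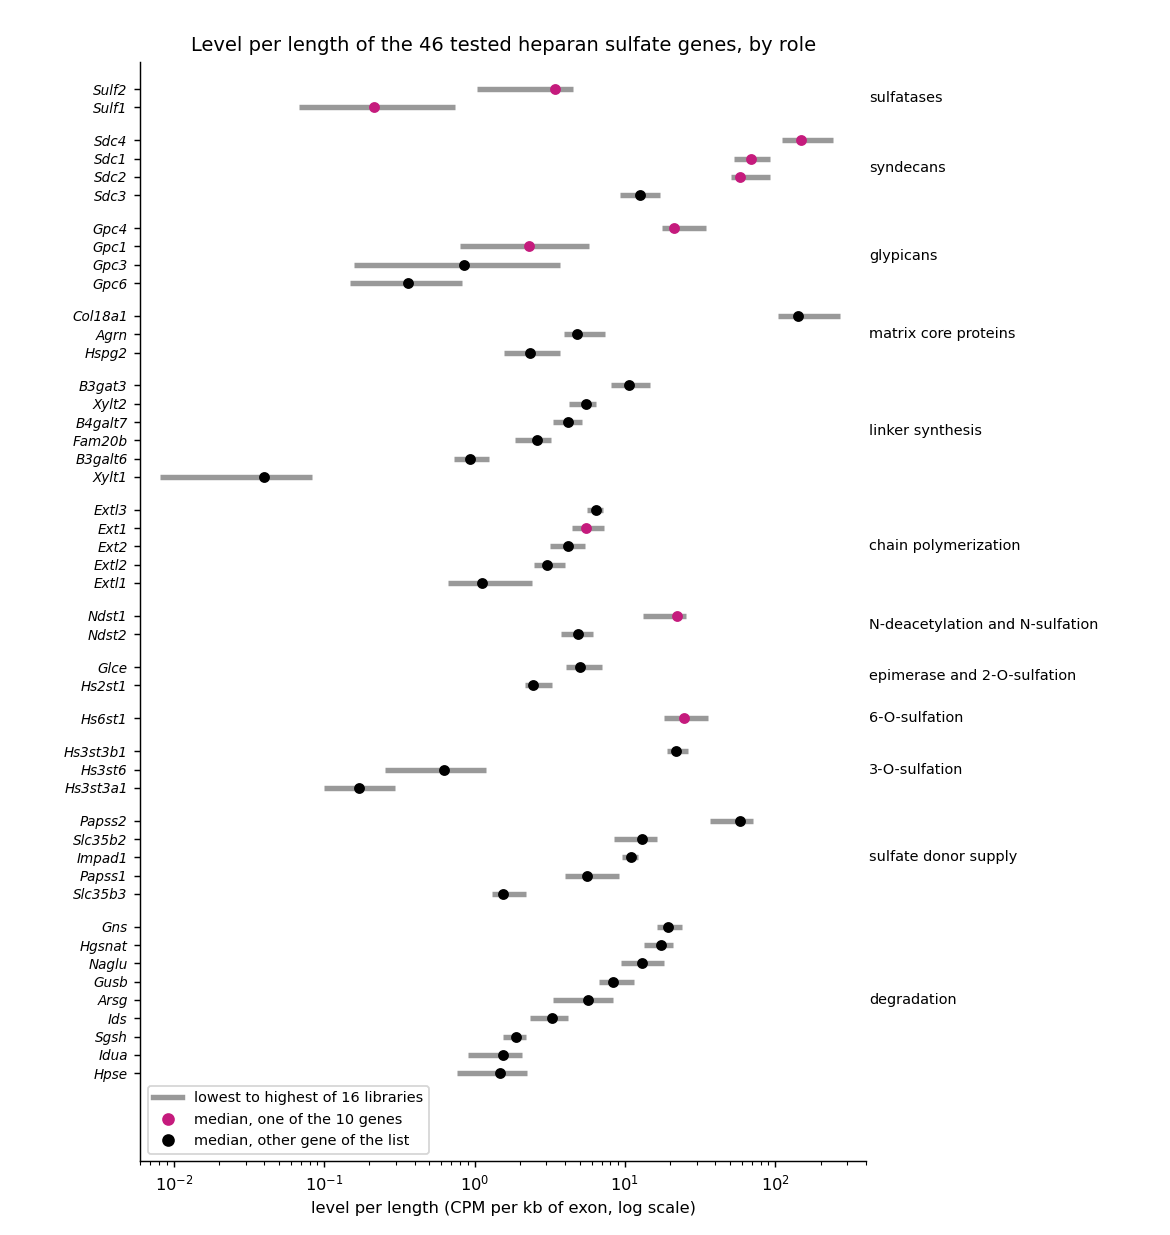
Points give the median level per length over 16 libraries in CPM per kb of exon on a log axis, and grey bars run from the lowest to the highest library, with the 46 tested genes grouped by role and the 10 genes of the set in magenta. Sdc4 and Col18a1 are at the top, at medians of 148 and 141 CPM per kb, and Sulf2 lies at 3.43, above Sulf1 at 0.214.

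The level of Sulf2 per length was also set against that of Hs6st1, which adds the group that Sulf2 removes. It was 4.99% and 5.74% of the Hs6st1 level in the 6-month controls. It was 14.9% to 22.7% in the 6-month day 2 libraries and 14.6% to 20.7% in the 6-month day 6 libraries. In the 1-month mice it was 6.25% and 9.56% in controls, 11.2% to 17.1% on day 2 and 8.53% to 11.8% on day 6. Hs6st1 itself did not pass in any contrast, and at 6 months the ratio holds the Sulf2 values that chose the set.

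Sulf1 (ENSMUSG00000016918, chromosome 1, 12692277 to 12861192, plus strand), the other sulfatase gene, varied more between libraries of a group than Sulf2 did. The 1-month controls had 1.27 and 8.36 CPM, the day 2 libraries 1.52, 3.39 and 7.32 CPM, and the day 6 libraries 1.39, 6.47 and 2.56 CPM. The 6-month controls had 1.96 and 0.768 CPM, the day 2 libraries 1.69, 2.59 and 4.05 CPM, and the day 6 libraries 3.45, 2.27 and 2.24 CPM. The 3 highest values, 6.47 to 8.36 CPM, were those of the 3 libraries of lowest clock score, and the other 13 libraries did not exceed 4.05 CPM.

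Sulf1 did not pass in any contrast. Its log2 fold change in 6-month livers was 1.07 (SE 0.844) on day 2 and 1.00 (SE 0.846) on day 6, both with an adjusted p of 1.00 by edgeR's quasi-likelihood test, Benjamini-Hochberg adjusted. Between the control ages it was -1.87 (SE 0.898, adjusted p = 0.420 by the same test), and it was -2.66 to 0.06 when single libraries were left out. Without control library 2 of the 1-month mice, 1 of the 3 of lowest clock score, the value was 0.06. The summed level of 7 stellate cell and fibroblast markers was 351 to 475 CPM in the 3 libraries and 241 to 432 CPM in the other 13, with all markers of that list detected. The part of clock phase or of cell makeup in these values was not tested.

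**Figure D3:**
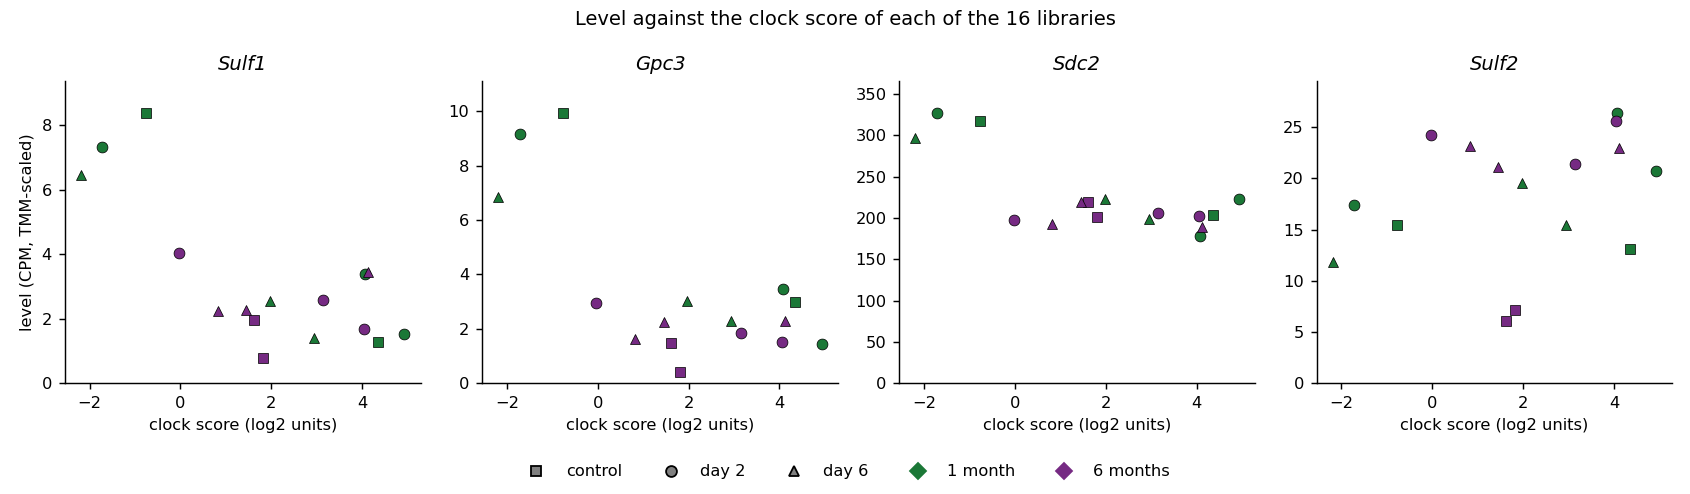
The level in CPM, on linear axes from 0, is plotted against the clock score in log2 units for each of the 16 libraries, with squares for controls, circles for day 2, triangles for day 6, green for 1 month and purple for 6 months. The 3 libraries with scores from -2.19 to -0.77 are the highest for Sulf1, Gpc3 and Sdc2, and Sulf2 has values between 11.8 and 17.4 CPM there.

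Syndecans are transmembrane core proteins, and none of the 4 passed in any contrast. Sdc1, the main heparan sulfate proteoglycan of hepatocytes and a receptor for remnant lipoproteins, had 202 and 270 CPM in 1-month controls and 253 and 228 CPM in 6-month controls. Its log2 fold changes after DEN were 0.10 to 0.32 over both ages and days. Sdc4, which acts with integrins at focal adhesions, had 485 and 608 CPM in 1-month controls and 395 and 337 CPM in 6-month controls. Its libraries did not overlap between the control ages, as for 5 of the 9 genes other than Sulf2 and 43.1% of all genes tested, and its log2 fold change there was -0.58 (SE 0.237, adjusted p = 0.316 by edgeR's quasi-likelihood test, Benjamini-Hochberg adjusted). Sdc2 was 178 to 326 CPM, and its 3 highest values were those of the 3 libraries of lowest clock score.

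Within the sum of the 4 syndecans in CPM per kb, Sdc4 made up 44.7% to 61.9% and Sdc1 made up 16.7% to 30.3%. The Sdc1 share was 16.7% and 17.3% in the 1-month controls, 21.9% to 30.3% on day 2 and 19.1% to 21.5% on day 6. At 6 months it was 22.1% and 22.7% in controls, 25.9% to 26.9% on day 2 and 23.02% to 26.9% on day 6. Every DEN library thus had a larger Sdc1 share than both controls of its age, and the share was not tested. In CPM, Sdc1 itself overlapped the controls on both days at 1 month and on day 6 at 6 months. The share also depends on Sdc4, whose log2 fold change on day 2 at 1 month was -0.48 (SE 0.214). With 2 controls an age, 14.4% to 21.9% of all genes did not overlap in CPM between DEN and control. These shares hold for a single day at a single age and for either direction. The share of genes above the controls on both days at both ages was not counted. Sdc3, the fourth syndecan, made up 2.25% to 6.41%, and its log2 CPM had r = 0.95 with the log2 sum of 6 macrophage markers over the 16 libraries, which share age, day and depth.

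Glypicans are anchored to the membrane by a lipid, and Gpc1, which binds FGF through its chains, was the gene of the set that differed most between the ages. Gpc1 (ENSMUSG00000034220) lies on chromosome 1 of GRCm38 from 92831645 to 92860779 on the plus strand. Its levels were 4.33 and 4.38 CPM in 1-month controls, 4.69, 6.60 and 4.14 CPM on day 2, and 7.96, 5.15 and 7.08 CPM on day 6. The 6-month controls had 21.4 and 21.3 CPM, the day 2 libraries 23.6, 22.9 and 20.7 CPM, and the day 6 libraries 29.7, 22.9 and 15.7 CPM. All 8 libraries of 6-month livers, at 15.7 CPM or more, were above all 8 of 1-month livers, at 7.96 CPM or less, as was the case for 1.97% of all genes tested.

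Between the untreated ages Gpc1 rose by a log2 fold change of 2.29 (SE 0.286), or 4.89-fold, with an adjusted p of 0.000781 by edgeR's quasi-likelihood test, Benjamini-Hochberg adjusted. In this comparison 2.67% of all genes passed, 1.61% higher and 1.06% lower at 6 months. Gpc1 was the only 1 of the 9 genes other than Sulf2 that passed there, and it passed under all 23 alternatives, with log2 fold changes of 2.28 to 2.30. Its response to DEN was small, with log2 fold changes of 0.07 (SE 0.243) and 0.09 (SE 0.243) on days 2 and 6 at 6 months, and neither passed. On day 6 at 1 month it was 0.62 (SE 0.263, adjusted p = 1.00 by the same test). The summed level of 6 lymphocyte markers was 2.35 to 4.49 CPM in 1-month libraries and 4.93 to 10.7 CPM in 6-month libraries, with Trac at 0 in some libraries. Its part in the Gpc1 difference was not tested.

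Gpc4 ranged from 46.7 to 91.7 CPM and had log2 fold changes of -0.41 to 0.09 between the control ages and after DEN. Its 3 highest values, 81.0 to 91.7 CPM, were those of the 3 libraries of lowest clock score. Gpc3, a glypican of fetal liver that is no member of the set, followed Sulf1 rather than Gpc1. It had 6.84 to 9.92 CPM in the 3 libraries of lowest clock score and 0.427 to 3.46 CPM in the others. Its log2 fold change between the control ages was -2.83 (SE 0.850, adjusted p = 0.141 by edgeR's quasi-likelihood test, Benjamini-Hochberg adjusted). Without the 3 libraries it was -1.72, with an adjusted p of 0.384 by the same test. Gpc3 passed under 6 of 23 alternatives, among them DESeq2 (adjusted p = 0.0135), and with edgeR the clock score as a covariate (adjusted p = 0.0124) and no filter on low counts (adjusted p = 0.000470).

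None of the 3 chain enzymes passed in any contrast. Ext1 ranged from 35.7 to 58.6 CPM, Hs6st1 from 101 to 198 CPM and Ndst1 from 109 to 210 CPM over the 16 libraries. Their log2 fold changes after DEN were -0.10 to 0.09 for Ext1, -0.24 to 0.09 for Hs6st1 and -0.14 to 0.17 for Ndst1, and none passed. Hs6st1 was lower in the 6-month than in the 1-month controls, at 116 and 118 CPM against 198 and 152 CPM. These controls did not overlap between the ages, as was the case for 43.1% of all genes tested. The log2 fold change was -0.58 (SE 0.201), with an adjusted p of 0.214 by edgeR's quasi-likelihood test, Benjamini-Hochberg adjusted. With the clock score as a covariate it was -0.56, with an adjusted p of 0.0313 by the same test.

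Over the 9 genes other than Sulf2, none passed after DEN at either age. The median log2 fold change was 0.09 on day 2 and 0.08 on day 6 at 6 months, where the median of all genes was 0.00 on both days. In these comparisons 0.319% and 0.249% of all genes passed. At 1 month the medians were -0.10 on day 2 and -0.02 on day 6, where 0.0191% and 0% of all genes passed and the medians of all genes were -0.01 on both days. Leaving out Sulf1, the 8 remaining genes had log2 fold changes of -0.19 to 0.17 on day 2 and -0.15 to 0.10 on day 6 at 6 months. Unadjusted p under 0.05 was found for Sdc4 on day 2 and Gpc1 on day 6 at 1 month, and for none at 6 months. No gene of the 9 passed in the contrast of the response between ages, where 0.00638% of all genes passed on day 2 and 0.0128% on day 6. None passed between day 6 and day 2, where 0.00638% of all genes passed at 1 month and 0.0128% at 6 months. Libraries did not overlap between DEN and control for 3 of the 9 genes on day 2 at 6 months (Ndst1, Sdc1 and Sdc4), where 21.9% of all genes did not. They did not for 1 of the 9, Sulf1, on day 6 at 6 months, where 19.5% of all genes did not, and for 0 of the 9 on day 2 at 1 month, where 16.7% did not. On day 6 at 1 month they did not for 1 of the 9, Gpc1, where 14.4% of all genes did not.

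**Figure D4:**
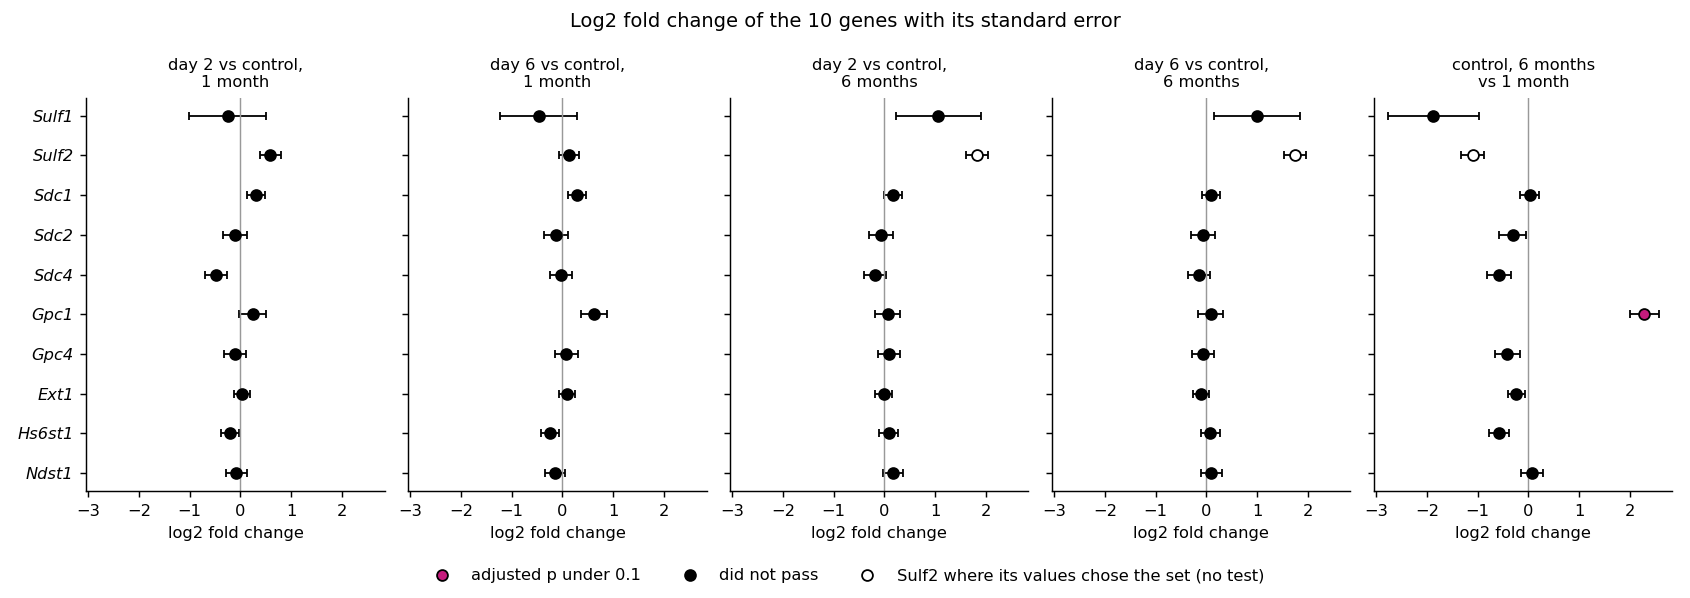
Points are log2 fold changes from the fit over 16 libraries and bars their standard errors, in 1 panel per comparison, for the 10 genes. Only Gpc1 in untreated livers (2.29) is marked as past an adjusted p of 0.1, and open points mark Sulf2 where its own values chose the set, at 1.83 and 1.75 after DEN at 6 months.

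In the wider list of heparan sulfate genes other than Sulf2, 1 of 45 tested was higher and 1 was lower in untreated 6-month livers than in 1-month livers. Of all genes, 1.61% were called higher and 1.06% lower there. The higher gene was Gpc1 and the lower was Naglu. The median log2 fold change of the 45 was -0.12, and that of all genes was -0.01. Naglu encodes the lysosomal N-acetylglucosaminidase that degrades heparan sulfate. It had 40.2 and 45.1 CPM in 1-month controls and 28.1 and 25.5 CPM in 6-month controls. The log2 fold change was -0.67 (SE 0.171), with an adjusted p of 0.0750 by edgeR's quasi-likelihood test, Benjamini-Hochberg adjusted. The adjusted p was 0.123 and 0.387 without control library 1 or 2 of the 1-month mice and 0.252 and 0.385 without control library 1 or 2 of the 6-month mice. Leaving out the 3 libraries of lowest clock score gave 0.313, with log2 fold changes of -0.59 to -0.75 throughout.

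By role, the 3 matrix core proteins had log2 fold changes between the untreated ages of -0.70 for Col18a1, -0.67 for Hspg2 and -0.57 for Agrn, and none passed. Of 7 stellate cell and fibroblast markers, 2 were called lower there, Col3a1 and Col1a1, as were 1.06% of all genes. The median of the 7 was -0.10, and 3 of them had values above 0. The 7 sinusoidal endothelium markers had a median of -0.45, with 3 at unadjusted p under 0.05, where 12.6% of all genes were. The summed stellate level was 414 to 432 CPM in 1-month and 261 to 335 CPM in 6-month controls. Within that sum, Col3a1 had means of 149 and 37.7 CPM and Col1a1 38.1 and 8.35 CPM. The endothelial sum was 318 to 402 CPM in 1-month and 239 to 304 CPM in 6-month controls, with no marker of either list at 0. Over the 16 libraries, which share age, day and depth, Hspg2 had r = 0.85 with the endothelial sum, Col18a1 0.36 and Agrn 0.34. With the hepatocyte sum these genes had r of 0.35, 0.89 and 0.73, and with the stellate sum 0.67, 0.56 and 0.50. The part of these cell types was not tested. In the 3 libraries of lowest clock score, which include control library 2 of the 1-month mice, Col18a1 had 1567 to 1882 CPM. It had 793 to 1251 CPM in the other 1-month libraries and 729 to 994 CPM in the 6-month libraries. In linker synthesis and chain polymerization the medians were -0.17 and -0.12, with none of 6 and none of 5 passing. In the degradation group, 5 of 9 tested genes had values above 0 and only Naglu passed. Between the 8 libraries of each age, 4 of the 46 genes did not overlap, where 3.68% of all genes did not. These were Gpc1 and Hpse, which were higher at 6 months, and Naglu and Gusb, which were lower. Hpse, the heparanase that cuts the chains, had 2.70 to 5.02 CPM at 1 month and 5.30 to 7.80 CPM at 6 months. Gusb, the lysosomal beta-glucuronidase, had 38.5 to 52.0 CPM at 1 month and 30.6 to 37.7 CPM at 6 months. Naglu had 36.7 to 48.6 CPM at 1 month and 24.9 to 31.9 CPM at 6 months.

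**Figure D5:**
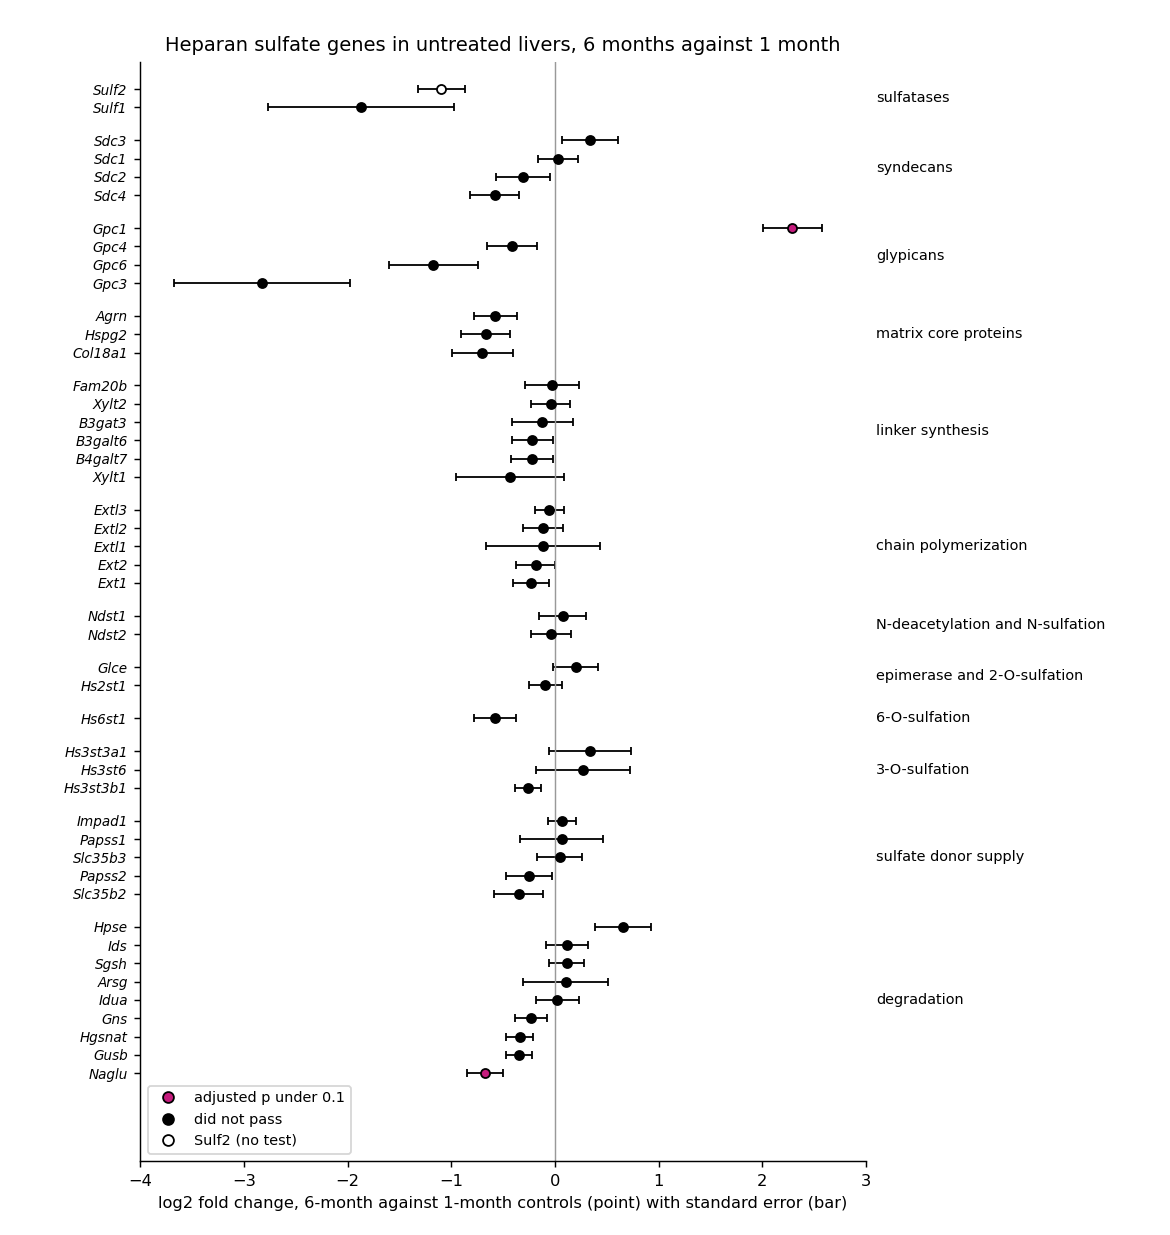
Points are log2 fold changes of 6-month against 1-month controls and bars their standard errors for the 46 tested heparan sulfate genes, grouped by role. Gpc1 at 2.29 and Naglu at -0.67 are marked as past an adjusted p of 0.1, Sulf2 at -1.09 is shown without a test, and Gpc3 at -2.83 has a standard error of 0.850.

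After DEN no heparan sulfate gene passed at 1 month by edgeR's quasi-likelihood test, nor by DESeq2. Unadjusted p was under 0.05 for 5 of 46 on day 2 and 2 of 46 on day 6, where 7.16% and 2.72% of all genes were. At 6 months none of the 45 genes other than Sulf2 passed on either day by either tool, with unadjusted p under 0.05 for 0 of 45 on both days, where 4.01% and 2.99% of all genes were. In the contrast of the response between ages none of these 45 passed by either tool, with unadjusted p under 0.05 for 2 on day 2 and 0 on day 6, where 4.46% and 1.91% of all genes were. Between day 6 and day 2 none passed by either tool, with unadjusted p under 0.05 for 3 of 46 at 1 month and 0 of 45 at 6 months, where 5.06% and 1.72% of all genes were.

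The ligands and receptors that use heparan sulfate were counted in the same fit. Of 15 ligand genes, among them Fgf1, Hgf and Rspo3, none passed in any of the 9 contrasts by edgeR's test. Unadjusted p was under 0.05 for at most 4, between the untreated ages, where 12.6% of all genes were. Of 14 receptor genes, 1 passed, which was Fgfr1 in the untreated ages, where 2.67% of all genes passed. Fgfr1 encodes an FGF receptor that forms a complex with FGF and heparan sulfate. It had 3.86 ± 0.13 CPM (SD, n = 2) in 1-month controls and 9.19 ± 0.73 CPM (SD, n = 2) in 6-month controls. The log2 fold change was 1.25 (SE 0.251), with an adjusted p of 0.0252 by edgeR's quasi-likelihood test, Benjamini-Hochberg adjusted. The adjusted p was 0.102 and 0.200 without control library 1 or 2 of the 1-month mice and 0.159 without control library 1 of the 6-month mice. Leaving out the 3 libraries of lowest clock score gave 0.151. The log2 fold change of Fgfr1 was 1.17 to 1.33 under all 23 alternatives, of which 18 passed. After DEN Fgfr1 had log2 fold changes of 0.04 on day 2 and 0.34 on day 6 at 6 months, and neither passed.

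Of 24 p53 target genes, 9 passed on day 2 and 9 on day 6 at 6 months, all higher, as did 0.242% and 0.191% of all genes, with median log2 fold changes of 1.15 and 1.01. The 3 with the smallest p on both days were Plk2, a polo-like kinase, Eda2r, a receptor of the TNF family, and Polk, a translesion DNA polymerase. Their log2 fold changes at 6 months were 1.96, 3.47 and 1.64 on day 2 and 1.69, 3.29 and 1.42 on day 6. At 1 month none of the 24 passed by edgeR's test, with unadjusted p under 0.05 for 14 on day 2 and 10 on day 6, where 7.16% and 2.72% of all genes were, and medians of 0.77 and 0.49.

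The genes whose pattern was most like that of Sulf2 were ranked by Pearson's r of log2 CPM over the 16 libraries, among 11672 genes with an official symbol and a mean of at least 1 CPM. The 8 highest were Ephx1 (r = 0.925), Mbl2 (r = 0.922), Ces2e (r = 0.910), Gria3 (r = 0.888), Ptpdc1 (r = 0.862), Tmem14a (r = 0.846), Cpped1 (r = 0.837) and Bax (r = 0.832). Ephx1 encodes microsomal epoxide hydrolase, Mbl2 a mannose-binding lectin secreted by hepatocytes, Ces2e a carboxylesterase, Gria3 a glutamate receptor subunit and Bax a promoter of apoptosis. Of these 8, only Bax was in the list of p53 target genes. Ranked by Spearman's rho instead, the first 8 were Ces2e, Mbl2, Ephx1, Bax, Aaas, Tnfrsf10b, Aen and Phlda3. The libraries share age, day and depth, and with log2 CPM centred on the group means Ephx1 had r = 0.81 and Ptpdc1 had r = -0.22.

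Levels of Ephx1, Mbl2 and Gria3 are given as examples. Ephx1 had 382 to 411 CPM in 6-month controls and 714 to 833 CPM on day 2 at 6 months, against 460 to 517 CPM in 1-month controls. Mbl2 had 377 to 400.5 CPM in 6-month controls and 1148 to 1182 CPM on day 2, against 492 and 493 CPM in 1-month controls. Gria3 had 2.47 to 2.65 CPM in 6-month controls and 17.4 to 21.8 CPM on day 2, against 4.87 to 6.76 CPM in 1-month controls. On day 2 at 1 month these genes were also above the controls of that age. Ephx1 had 583 to 957 CPM, Mbl2 800 to 1349 CPM and Gria3 9.54 to 15.8 CPM there.

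Among the other 9 genes of the set, r with Sulf2 over the 16 libraries was -0.38 for Sdc4 to 0.26 for Sulf1. With log2 CPM centred on the group means it was -0.76 for Sdc4, -0.69 for Ndst1 and 0.52 for Gpc1. The r of Sulf2 with the log2 summed markers of 7 cell types was -0.41 for hepatocytes to 0.09 for lymphocytes, and with the clock score it was 0.25. Sdc2, Sdc4 and Gpc4 had r of 0.92, 0.90 and 0.85 with the hepatocyte sum, which was itself highest in the 3 libraries of lowest clock score.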

How the data were processed

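RNA of 16 mouse liver libraries was measured by RNAseq. The authors mapped the reads with TopHat 2.0.13 to GRCm38 with Ensembl release 84, and the submitters' processing notes also name cutadapt, Cufflinks 2.2.1 and DESeq2 1.10.1. Raw counts, whole numbers for each gene, are what the authors deposited (counting program and strand setting: not given in the sources used here). Also in the table are 16 columns of the authors' normalized counts and columns of their fold changes and p-values, which were not used. Of 47729 genes, 10 without counts were left out.

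From the counts, TMM scaling and filterByExpr with the 6 groups left 15684 genes, which entered edgeR's quasi-likelihood test in a single model of all groups, under R 4.3.3 with edgeR 4.0.16 and limma 3.58.1. P-values were adjusted by Benjamini-Hochberg over all genes, with a threshold of 0.1. Groups, ages and days came from the labels. Library totals were 19039330 to 34459774 counts, and precision is lowest for genes of few counts. With 2 controls an age, the spread is estimated over all groups. Fold changes have a prior count of 0.125 and log2 CPM one of 2. Exon lengths came from GENCODE M21 by gene identifier. Fits were tested on simulated data. Alternatives were RLE size factors, no filter, DESeq2 1.42.0, only the groups compared, each library left out, a replicate block, the clock score as a covariate, and leaving out the 3 libraries of lowest score. Summaries used Python 3.11.15 with numpy 2.4.6 and pandas 2.3.3, and plots used matplotlib 3.10.9.

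The 10 genes and all lists (heparan sulfate roles, ligands, receptors, p53 targets, clock genes and cell type markers) were chosen with earlier results of these data known. The genes named are these 10, genes of the heparan sulfate list that passed, up to 3 that passed in each other list, and the 8 genes with the highest r to Sulf2. Gpc3, Hpse, Gusb, Col18a1, Hspg2, Agrn, Papss2, Ndst2 and Sdc3 were named after their values were seen. Aaas, Tnfrsf10b, Aen and Phlda3 are named as the others among the first 8 by Spearman's rho. One further gene list is not reported here.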

Additional observations from a re-analysis of the deposited data

How the results depend on the processing

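Between the untreated ages, 2 of 45 heparan sulfate genes other than Sulf2 passed, where 2.67% of all genes did. For the alternatives only the count of heparan sulfate genes was taken, not the share of all genes. The count was 5 without the filter on low counts, 4 with clock score added as a term, 1 in a fit of only the groups compared and 1 without the 3 libraries of lowest clock score. It was 1 to 3 when single libraries were left out, and was 1, with Gpc1 alone, without control library 2 of the 1-month mice or either 6-month control library. Replicate numbers were not taken to pair the libraries. Of 36 same-number pairs, 16 had r over 0.1, and 11 of 16 libraries correlated best with a library of their own number. Pairs of unlike number with r over 0.1 were not counted, so these values do not decide whether the numbers pair the libraries. With the replicate block the count between the untreated ages was 2 again and no call of a heparan sulfate gene changed. Of the 8 genes most like Sulf2, 0 were among the first 8 with log2 CPM centred on group means and 4 by Spearman's rho. Of 2070 member values under an alternative, 2067 kept their side of the threshold or, for untested Sulf2 values, moved by no more than 1 SE. In 98 of these the sign differed where neither value passed. Sulf1 between the untreated ages passed without the filter, at -1.86 (adjusted p = 0.0598 by edgeR's quasi-likelihood test). The causes were not tested.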
